A study of Mus musculus with 4 samples.

Results

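The 7 genes described here guide lymphocytes into, within and out of lymph nodes: the chemokines Ccl19, Ccl21a and Cxcl13, their receptors Ccr7 and Cxcr5, the sphingosine-1-phosphate receptor S1pr1, and the transcription factor Klf2. They were chosen by symbol and match 9 of the 31253 gene rows, since Ccl19 and Ccl21a have a second row each. The second Ccl19 row held 0 UMIs (unique molecular identifiers, each a counted RNA molecule) and the second Ccl21a row held 1. The 5 rows of Ccl21b, Ccl21c and Ccl21d, near-identical copies of Ccl21a, held 0 UMIs, so how reads were shared among the copies is uncertain for Ccl21a. The identifiers are ENSMUSG00000071005 (Ccl19), ENSMUSG00000094686 (Ccl21a), ENSMUSG00000023078 (Cxcl13), ENSMUSG00000037944 (Ccr7), ENSMUSG00000047880 (Cxcr5), ENSMUSG00000045092 (S1pr1) and ENSMUSG00000055148 (Klf2).

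Single cells came from tumours of CT26, a mouse colon carcinoma line, and from their draining lymph nodes (TDLN), in female mice of 4 to 8 weeks. NanoCa is a lipid nanoparticle that carries a calcium crystal and is meant to act through interferon beta, per the series title. Tumours and nodes were each sampled once with NanoCa and once with mock, giving 4 groups of 1 library each: TDLN NanoCa, TDLN mock, tumour NanoCa and tumour mock. Both mock libraries are tagged "no treatment", yet NanoCa stands in the treatment protocol of every library, so the contrast of NanoCa with mock depends on the titles and tags being right. Strain, dose, sampling time and number of mice are not given in the labels used here. The cells were stained for CD45, the protein of Ptprc, and sorted, with the gate not given. With 1 library per group there is no replicate and no test, and every interval covers counting error alone.

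In lymph nodes, fibroblastic reticular cells make CCL19 and CCL21, which draw CCR7-bearing naive T cells, B cells and mature dendritic cells into the T-cell zone. Follicular dendritic cells and other follicular stroma make CXCL13, the ligand of CXCR5 on B cells and follicular helper T cells. Lymphocytes leave the node along a gradient of sphingosine-1-phosphate that S1PR1 senses, and KLF2 maintains S1pr1 in resting lymphocytes. CD69, induced on activation and by type I interferon, removes S1PR1 from the cell surface, a step at the protein level that RNA counts do not show.

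Of barcodes with 200 genes or more and no more than 10% mitochondrial UMIs there were 11215 in tumour NanoCa, 9281 in tumour mock, 11013 in TDLN NanoCa and 10268 in TDLN mock. Their median depth was 12629, 12246, 4238 and 4429 UMIs. Among all deposited barcodes, before these filters, 873 sequences occurred in 2 or more libraries. After removal of called doublets 10209, 8592, 10043 and 9425 cells were classed, in the same order. The labels call the samples immune cells. Clusters low in both Ptprc and Xist, here the Xist-low Ptprc-low cells, nevertheless made up 67.3% and 68.5% of tumour NanoCa and mock cells, and 3.29% and 10.9% of TDLN NanoCa and mock cells. They held 28.8% of the UMIs of classed TDLN NanoCa cells and 54.5% of those of classed TDLN mock cells, doublets left out. A level per library in TDLN therefore shifts with their share. A class name means that a cluster, built without the 7 genes, carried markers of that class.

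The RefSeq promoter table used here has an entry for 4 of the 7 genes, the 3 ligands and Klf2. The 250 bases before their start are shown in build GRCm38.p6, so that the T-zone ligands, the follicular ligand and the transcription factor can be compared. Ccr7, Cxcr5 and S1pr1 are named only. The windows are chr4:42756366-42756615 (Ccl19, minus strand), chr4:42773992-42774241 (Ccl21a, minus strand), chr5:95956689-95956938 (Cxcl13, plus strand) and chr8:72318812-72319061 (Klf2, plus strand), read 5′ to 3′, with capitals for a TATAAA match in Cxcl13 and a MEF2 match in Klf2.
Ccl19: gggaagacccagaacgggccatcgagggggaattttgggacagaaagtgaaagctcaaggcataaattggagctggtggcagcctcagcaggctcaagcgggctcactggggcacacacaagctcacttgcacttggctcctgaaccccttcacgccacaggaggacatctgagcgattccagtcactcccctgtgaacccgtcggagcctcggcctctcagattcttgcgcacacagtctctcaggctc
Ccl21a: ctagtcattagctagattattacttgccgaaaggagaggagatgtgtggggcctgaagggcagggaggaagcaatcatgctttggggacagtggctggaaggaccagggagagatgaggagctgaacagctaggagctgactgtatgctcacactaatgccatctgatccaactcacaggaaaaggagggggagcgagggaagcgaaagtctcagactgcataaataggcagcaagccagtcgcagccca
Cxcl13: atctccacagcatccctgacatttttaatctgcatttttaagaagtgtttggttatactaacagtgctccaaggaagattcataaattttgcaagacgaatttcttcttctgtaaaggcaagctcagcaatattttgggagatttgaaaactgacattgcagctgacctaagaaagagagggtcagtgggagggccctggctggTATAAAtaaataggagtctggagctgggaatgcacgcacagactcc
Klf2: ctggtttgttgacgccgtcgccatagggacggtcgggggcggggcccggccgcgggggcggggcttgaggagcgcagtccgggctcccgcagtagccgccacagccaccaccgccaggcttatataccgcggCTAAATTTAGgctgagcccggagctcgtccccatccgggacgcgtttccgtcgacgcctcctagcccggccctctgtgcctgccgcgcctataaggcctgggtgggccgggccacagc
Both strands were searched for TATAAA, for CACCC, and for the NF-kB and MEF2 consensus motifs. TATAAA had 1 match, in Cxcl13 at -46 to -41 from the start, against 12.4% of 32851 promoters with a match. The MEF2 match of Klf2, CTAAATTTAG at -118 to -109, reads the same way on both strands, and 2.92% of promoters had one. Klf2 also held 1 CACCC, on the minus strand at -19 to -15, a motif present in 52.0% of promoters. The NF-kB motif was in none of the 4 windows and in 7.25% of all promoters. GC content was 58.4% (Ccl19), 52.8% (Ccl21a), 42% (Cxcl13) and 71.2% (Klf2). These are matches of letters, and binding was not measured.

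Each of the 7 genes was higher in the 2 TDLN libraries than in the 2 tumour libraries, on the scale of CPM (counts per 1000000 UMIs of a library). The share of all genes that separate the tissues in this way was not counted, so this is not a result particular to the 7. Xist-low Ptprc-low cells held 90.4% of the UMIs of classed cells in tumour NanoCa and 90.4% in tumour mock. In TDLN NanoCa and mock they held 28.8% and 54.5%. With the tumours first (NanoCa, then mock) and the nodes after them (NanoCa, then mock), Ccr7 was at 16.0, 23.6, 1278 and 669 CPM. S1pr1 was at 3.08, 5.06, 204 and 87.8 CPM, and Klf2 at 159.8, 223, 1428 and 666 CPM. TDLN exceeded tumour 28.4-fold for Ccr7, 17.4-fold for S1pr1 and 2.98-fold for Klf2 with mock, and 80.1-fold, 66.2-fold and 8.93-fold with NanoCa. Cxcr5, the B-cell follicle receptor, was at 1.07, 0.989, 31.5 and 21.9 CPM. The tumour libraries were at or below 1.07 CPM of it, and the TDLN libraries at or above 21.9 CPM. The ligands were rare everywhere: Ccl19 was at 0.149, 0.0271, 11 and 1.85 CPM, Ccl21a at 0.0298, 0.0203, 12.9 and 1.36 CPM, and Cxcl13 at 1.38, 0.589, 21.7 and 20.6 CPM. In bulk sums of this kind, fewer cells of a type and less RNA per cell cannot be told apart, and the levels by cell class follow.

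**Figure D1:**
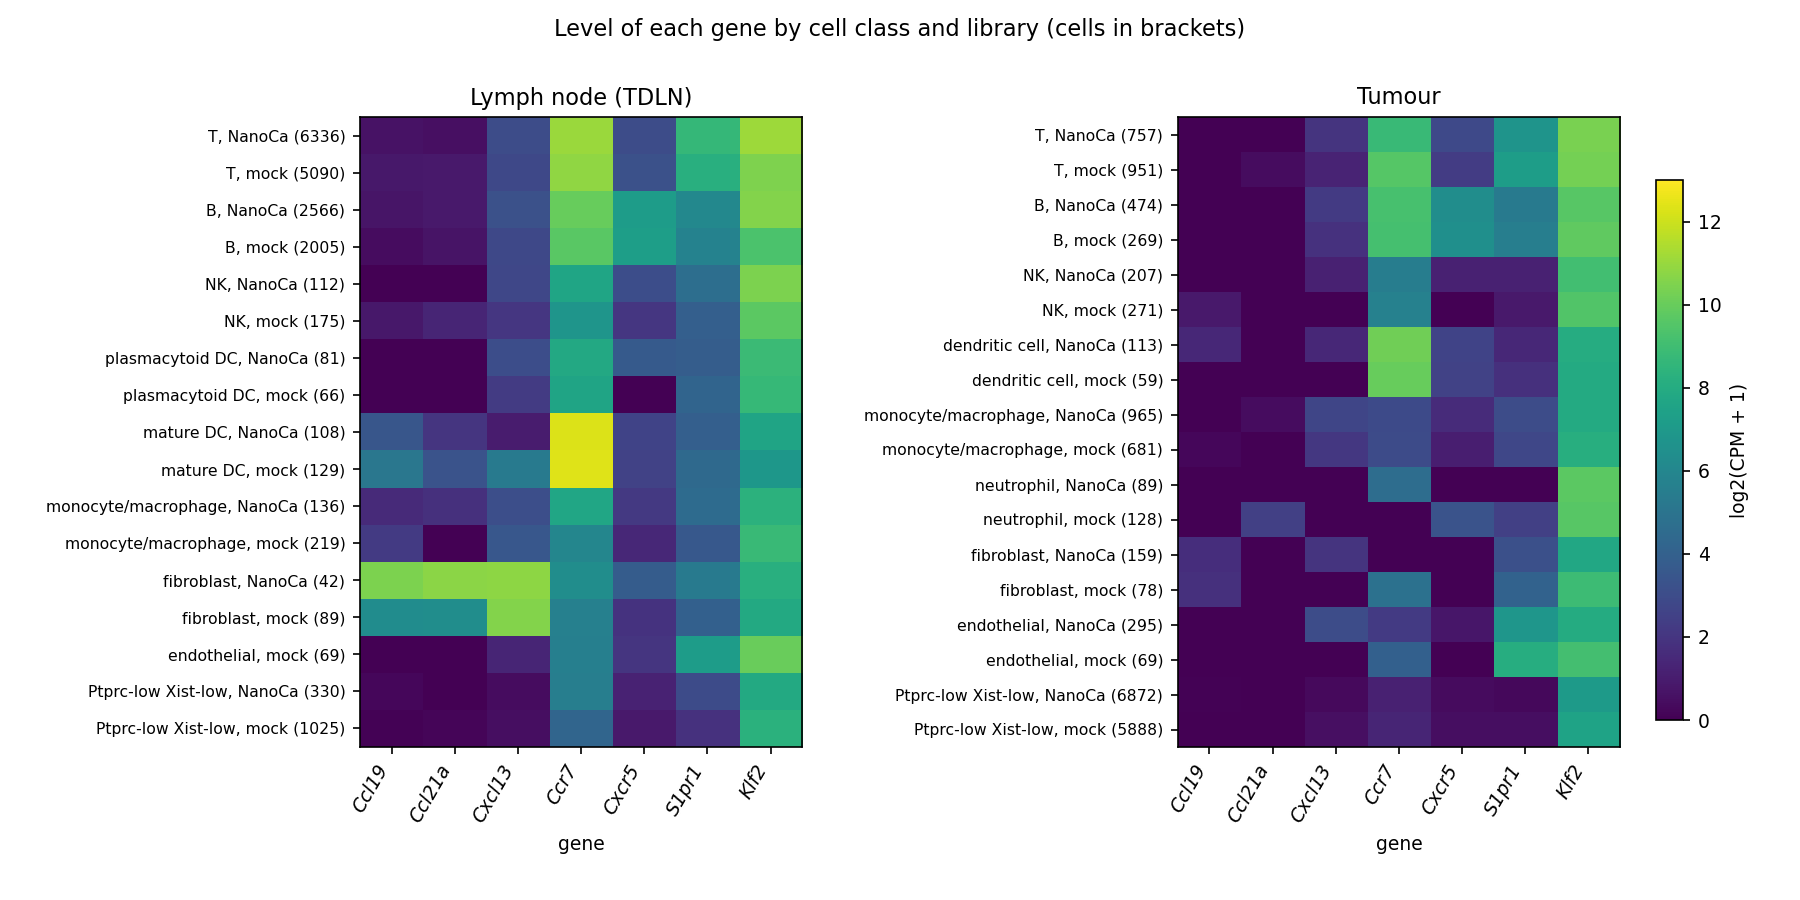
Heat map of log2(CPM + 1) for the 7 genes (columns) by cell class and library (rows, number of cells in brackets), with the node on the left and the tumour on the right, for classes of at least 50 cells and the 42 fibroblast-like cells of TDLN NanoCa. The 3 ligands are strongest in TDLN fibroblast-like cells, Ccr7 in mature dendritic cells (5160.0 and 5355 CPM in TDLN NanoCa and mock) and T cells, Cxcr5 in B cells, and S1pr1 in T and endothelial cells.

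Ccl19 and Ccl21a of the NanoCa node came almost wholly from 2 fibroblast-like cells. Of 819 Ccl19 UMIs, 1 cell held 426 and another 335, together 92.9%, and the same cells held 468 and 439 of 967 Ccl21a UMIs, 93.8%. Both also carried Il7 (10 and 4 UMIs), the T-cell survival cytokine of reticular cells, and Grem1 (13 and 21 UMIs), an antagonist of bone morphogenetic proteins, and neither had a Cxcl13 UMI. In the mock node the richest cell, also fibroblast-like, held 52 of 196 Ccl19 UMIs and 46 of 144 Ccl21a UMIs, with 1 Il7 UMI and 0 of Grem1. The library totals therefore rest on single cells: the log2 NanoCa to mock ratio was 2.57 (2.34 to 2.80) for Ccl19 and 3.25 (3.0 to 3.52) for Ccl21a over whole libraries. Without the 2 richest barcodes of each library for the ligand it was -0.66 and 0.28.

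The fibroblast-like class held 42 cells with NanoCa and 89 with mock, and all 10 of its markers were detected in both. Its Ccl19 level was 1401 against 79.0 CPM, and its Ccl21a level 1689.7 against 80.8 CPM. Cells with at least 10 UMIs of either chemokine numbered 3 with NanoCa and 3 with mock, out of 42 and 89 cells. The 3 NanoCa cells ranged from 20 to 894 UMIs of both together and the 3 mock cells from 18 to 98. Il7 and Grem1 had 14 and 35 UMIs over the 3 NanoCa cells, but 2 and 0 over the 3 mock cells. Of the mock cells, 1 also held 83 Cxcl13 UMIs. Outside this class, mature dendritic cells, the CCR7-bearing migratory state, held 10 Ccl19 UMIs in 9 of 108 cells with NanoCa and 42 in 25 of 129 cells with mock. That is 10.2 against 34.6 CPM, a log2 ratio of -1.77 (-2.93 to -0.75). The 9 T-cell markers, all detected, summed to 107 CPM with NanoCa and 217 CPM with mock in the same class, and the part of other cells' RNA in the Ccl19 values was not tested. The 69 endothelial-like cells of the mock node and the 17 of the NanoCa node had 0 UMIs of Ccl19 and Ccl21a. That class was mixed, with keratin Krt8 at 698 and 1142 CPM in NanoCa and mock.

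Cxcl13 came from other cells of the same class. Cells with at least 10 Cxcl13 UMIs numbered 11 with NanoCa and 17 with mock, and only 1 cell, in the mock node, passed that level for Cxcl13 and for a T-zone ligand together. Madcam1, an adhesion molecule of marginal reticular and follicular dendritic cells, was detected in 10 of the 11 and 14 of the 17, and Cr2, the complement receptor of follicular dendritic cells, in 8 and 11. Col1a1, the collagen of fibroblasts, was detected in 1 and 3 of them, against 25 of 28 and 46 of 70 cells that were low in all 3 ligands. Those ligand-low cells had Madcam1 in 0 of 28 and 10 of 70, and Cr2 in 2 of 28 and 18 of 70. A NanoCa cell with 42 Cxcl13 and 16 Cr2 UMIs also held 21 UMIs of the B-cell marker Cd79a. The part of B-cell RNA in the Cr2 values was not tested. The T-zone ligand cells had Col1a1 in 3 of 3 and 2 of 3 and Madcam1 in 0 of 3 in both nodes. Cxcl13 of the class was at 1756 CPM with NanoCa and 1542 CPM with mock, and over whole libraries the log2 ratio was 0.07 (-0.02 to 0.16). Ptprc was detected in 4 of the 11 and 4 of the 17.

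**Figure D2:**
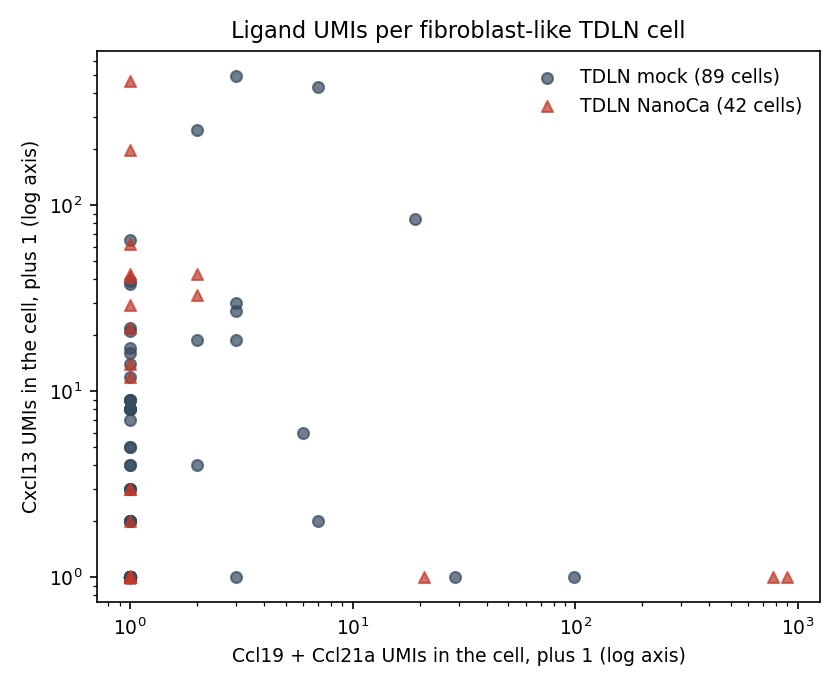
Each point is 1 fibroblast-like cell of the node (89 mock circles, 42 NanoCa triangles), with Ccl19 plus Ccl21a UMIs + 1 on the horizontal and Cxcl13 UMIs + 1 on the vertical log axis. Most cells with at least 10 T-zone ligand UMIs lie along the horizontal axis, with the 2 NanoCa cells of 894 and 774 UMIs farthest out. Most cells with some but fewer T-zone ligand UMIs also held Cxcl13, up to 496 UMIs in a mock cell. Most Cxcl13 cells lie along or near the vertical axis. A mock cell with 18 T-zone ligand UMIs and 83 Cxcl13 UMIs lies off both axes.

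Cxcl13 was low in most lymphocytes. After thinning each cell to 1000 UMIs, 0.871% of T cells and 0.872% of B cells had a Cxcl13 UMI in TDLN NanoCa, and 0.575% and 0.656% in TDLN mock. T and B cells were alike in this, at median depths of 4308 and 3758 UMIs with NanoCa and 4317 and 3783 with mock. The source of these UMIs was not tested. In the mock node 1 T cell held 42 of the 149 Cxcl13 UMIs of its class. The Gpr83 regulatory-like cluster had 6.71 CPM with NanoCa and 45.8 CPM with mock, on 9 and 47 UMIs (log2 -2.77, interval -3.99 to -1.72). The cluster of the T cell with 42 UMIs was not looked up, and that cell could hold most of these 47 UMIs. The interval does not cover such clumping in 1 cell. In the mature dendritic cells Cxcl13 had 1 UMI with NanoCa and 47 with mock, of which 25 were in 1 cell.

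Tumours held next to none of the T-zone ligands. Over all kept barcodes, Ccl19 had 25 UMIs with NanoCa, 13 of them in 1 barcode called a doublet, and 4 with mock. Ccl21a had 5 and 3. Tumour fibroblast-like cells, 159 and 78, held 4 and 2 Ccl19 UMIs and 0 of Ccl21a, where 3 counts would be 1.69 and 3.70 CPM. Cxcl13 was more frequent, with 232 UMIs with NanoCa and 87 with mock. Of the 97 and 82 left after doublet removal, Xist-low Ptprc-low cells held 36 and 56, and monocytes and macrophages 33 (25 in 1 cell) and 18. The 3 richest NanoCa barcodes, of 52, 39 and 37 Cxcl13 UMIs, were called doublets and are outside these class counts. The barcode of 39 also had 7 Madcam1 and 2 Cr2 UMIs, and that of 37 had 13 Ccl19 and 51 Col1a1 UMIs. In tumour mock 2 barcodes of the Xist-low Ptprc-low class, of only 937 and 884 UMIs, held 25 and 13 of its Cxcl13 UMIs. Single barcodes thus carried a large share of the tumour Cxcl13 in both libraries.

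Ccr7 was highest in mature dendritic cells of the node, at 5160.0 CPM with NanoCa and 5355 CPM with mock. Node T cells came next with 2109 and 1805 CPM, then node B cells with 1004 and 809 CPM. In tumours the conventional dendritic class, which also held all 10 mature dendritic markers, had 1145 and 1005 CPM, T cells 440.5 and 752, and B cells 602 and 573. Xist-low Ptprc-low cells of tumours were at 1.29 and 1.53 CPM. Of cells thinned to 1000 UMIs, 28.2% and 39.3% of tumour T cells had a Ccr7 UMI, against 0.258% and 0.267% of the Xist-low Ptprc-low cells, whose median depth before thinning was 19916 and 20626 UMIs against 1913 and 2323 in T cells.

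Cxcr5 was a B-cell gene in both tissues. Node B cells held 144 CPM with NanoCa and 154 CPM with mock, and tumour B cells 82.6 and 87.8 CPM. T cells were at 7.17 and 8.50 CPM in nodes, and at 6.32 and 3.99 CPM in tumours, on 11 UMIs in each tumour library. The 4 B-cell values lay above every value of another class of at least 50 cells.

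S1pr1 was highest in node T cells, with 401 CPM with NanoCa and 295 CPM with mock. Tumour endothelial-like cells, in which S1PR1 stabilises vessel junctions, held 113 and 278 CPM, and the mixed endothelial class of the mock node 146 CPM. Tumour T cells followed with 106 and 151, and B cells with 65.7 and 53.6 in nodes and 38.6 and 46.5 in tumours. Natural killer cells of tumours had 1 S1pr1 UMI in each library, over 207 and 271 cells, while those of nodes had 17 and 18 over 112 and 175 cells.

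Klf2 was detected in every class, with its highest level in node T cells of the NanoCa library. T cells held 2210.4 and 1443 CPM in nodes and 1353 and 1254 CPM in tumours, NanoCa first. Natural killer cells held 1368 and 855 CPM in nodes and 531 and 718 CPM in tumours. Tumour neutrophils were at 847 and 799.5 CPM. Monocytes and macrophages were lower, between 242 CPM in tumour NanoCa and 447 CPM in TDLN mock, and mature dendritic cells of nodes were at 194 and 118 CPM. Xist-low Ptprc-low cells of tumours were at only 134 and 184 CPM. They nevertheless held 74.1% and 74.2% of the Klf2 UMIs of classed tumour cells, so the tumour library levels of Klf2 mostly reflect them. In nodes that class held 4.88% and 26.5%.

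In node T cells Klf2 was higher with NanoCa. Calls were made for genes that had 50 UMIs or more in the 2 libraries together, a CPM differing 1.5-fold or more, and an interval that did not include a ratio of 1. Klf2 was at 2210.4 CPM with NanoCa (67173 UMIs, 6336 cells) and 1443 CPM with mock (35808 UMIs, 5090 cells), a log2 ratio of 0.62 (0.60 to 0.63). S1pr1 was at 401 and 295 CPM (log2 0.44, interval 0.40 to 0.49), and Ccr7 at 2109 and 1805 CPM (log2 0.22, interval 0.21 to 0.24), both above 1 but short of 1.5-fold. Cxcr5 was at 7.17 and 8.50 CPM (log2 -0.25, interval -0.52 to 0.03). Of the 5 members measured, the fifth being Cxcl13, 1 was called higher and 0 lower, against 2.16% of 12183 genes called higher and 7.77% called lower. The Klf2 call lies near the threshold, with a fold of 1.53. It is lost after thinning (log2 0.57), with free RNA subtracted (0.55) and at 2-fold.

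In node B cells the Klf2 difference was larger. Klf2 was at 1559 CPM with NanoCa (18873 UMIs, 2566 cells) and 635 CPM with mock (7250 UMIs, 2005 cells), a log2 ratio of 1.30 (1.26 to 1.34) or 2.46-fold. Ccr7 was at 1004 and 809 CPM (log2 0.31, interval 0.27 to 0.35), S1pr1 at 65.7 and 53.6 CPM (log2 0.29, interval 0.14 to 0.45), and Cxcr5 at 144 and 154 CPM (log2 -0.10, interval -0.19 to 0.00). Klf2 was the 1 member of 5 measured that was called higher, and 0 were called lower, against 3.71% and 8.5% of 10767 genes. With the same mix of B clusters in both libraries the Klf2 log2 ratio was 0.93, and that of Ccr7 was -0.11. After thinning, that of S1pr1 was -0.26 and that of Ccr7 -0.0089.

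Tumour T cells went the other way for Ccr7. It was at 440.5 CPM with NanoCa (767 UMIs, 757 cells) and 752 CPM with mock (2074 UMIs, 951 cells), a log2 ratio of -0.77 (-0.89 to -0.65). S1pr1 was at 106 and 151 CPM (log2 -0.50, interval -0.76 to -0.25) and Klf2 at 1353 and 1254 CPM (log2 0.11, interval 0.03 to 0.19). Of 3 members measured, 1 was called lower and 0 higher, against 2.84% and 6.18% of 7877 genes. With the same mix of T clusters in both libraries the Ccr7 log2 ratio was -0.43, which is short of 1.5-fold and ends the call.

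In tumour B cells no member was called among the 4 measured, where 7.23% of 5037 genes were called higher and 3.1% lower. Klf2 was at 791 and 899.5 CPM (log2 -0.19, interval -0.33 to -0.04), Ccr7 at 602 and 573 (log2 0.07, interval -0.10 to 0.25), Cxcr5 at 82.6 and 87.8 (log2 -0.09, interval -0.56 to 0.39), and S1pr1 at 38.6 and 46.5 (log2 -0.27, interval -0.95 to 0.42). With 474 and 269 cells these intervals are wide, and those of Ccr7, Cxcr5 and S1pr1 include a ratio of 1.

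**Figure D3:**
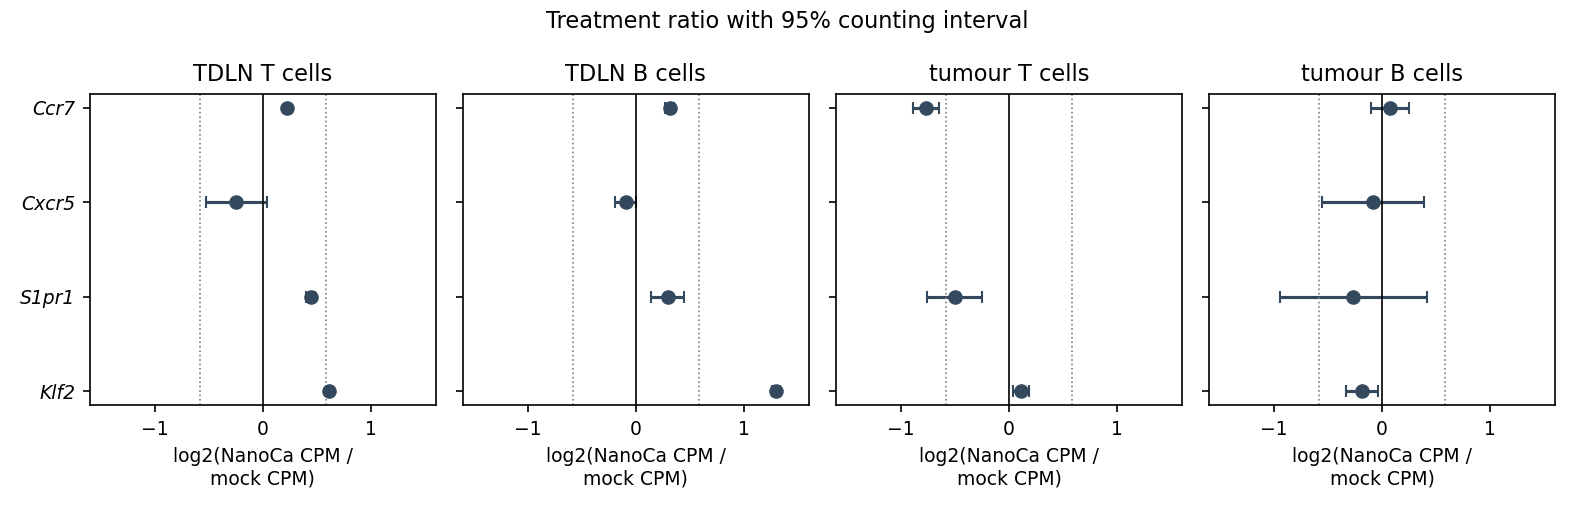
NanoCa to mock log2 ratio (horizontal axis) of Ccr7, Cxcr5, S1pr1 and Klf2 in T and B cells of node and tumour, 4 panels, with exact 95% counting intervals as bars and dotted lines at 1.5-fold. Klf2 lies past the upper line in both node panels (0.62 and 1.30), Ccr7 past the lower line in tumour T cells (-0.77), and Cxcr5 of tumour T cells is not drawn, having under 50 UMIs.

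Other classes of the node gave a mixed picture for Klf2. It was higher in natural killer cells, at 1368 against 855 CPM (log2 0.68, interval 0.55 to 0.80), and in mature dendritic cells, at 194 against 118 CPM (log2 0.72, interval 0.40 to 1.04). It was lower in sign and short of 1.5-fold in monocytes and macrophages (log2 -0.47, interval -0.60 to -0.33) and in Xist-low Ptprc-low cells (log2 -0.42, interval -0.47 to -0.38). Ccr7 of node monocytes and macrophages was at 209 against 61.0 CPM and S1pr1 at 22.1 against 11 CPM. Single cells weighed on that Ccr7 level: 1 held 126 of 426 UMIs with NanoCa and 1 held 68 of 172 with mock. Ccr7 was detected in 43 of 136 and 27 of 219 cells. The 9 T-cell markers summed to 215 and 62.1 CPM in the same class, all 9 detected in both, so T-cell RNA moved with both genes and its part was not tested. The Xist-low Ptprc-low cells of the node showed the same, with Ccr7 at 46.8 and 17.6 CPM beside T-cell markers at 73.8 and 32.8 CPM.

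In tumour endothelial-like cells S1pr1 and Klf2 were lower with NanoCa, and in fibroblast-like cells Klf2 was. Endothelial-like cells, 295 and 69, held 113 against 278 CPM of S1pr1 (log2 -1.30, interval -1.63 to -0.98) and 255 against 547 CPM of Klf2 (log2 -1.10, interval -1.32 to -0.88), a gene that laminar blood flow induces in endothelium. Klf2 of fibroblast-like cells was at 219.9 against 488 CPM (log2 -1.15, interval -1.36 to -0.94), while their S1pr1 rested on 14 and 13 UMIs. Klf2 was below mock in 6 of the 9 tumour classes compared, with log2 -0.44 (-0.61 to -0.26) in natural killer cells and -0.46 (-0.49 to -0.44) in Xist-low Ptprc-low cells, both short of 1.5-fold. In the latter S1pr1 was at 0.217 against 0.408 CPM on 29 and 49 UMIs (log2 -0.91, interval -1.63 to -0.22). Median depth of the endothelial-like cells was 1701 UMIs with NanoCa and 3735 with mock, and the part of depth in these values was not tested. Krt8, a keratin of the carcinoma, was at 32.3 and 0 CPM in the endothelial-like cells and at 144 and 357 CPM in the fibroblast-like cells.

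Within the T cells of the node, 14 clusters were compared one by one, and Klf2 was higher with NanoCa in 13, with the interval of the ratio above 1 in all 13. The 14 log2 ratios ran from -0.56 to 0.86 with a median of 0.54. The exception was the gamma-delta-like cluster led by Il17a, of 28 and 21 cells, at 533 and 786 CPM (log2 -0.56, interval -0.97 to -0.15). S1pr1 was higher in 12 of 13 measured clusters (11 intervals above 1, median 0.44) and Ccr7 in 11 of 13 (9 intervals above 1, median 0.17). The cluster with the widest S1pr1 difference was the cycling one, marked by Mki67, with 117 against 45.7 CPM (log2 1.36, interval 1.03 to 1.70). Clusters of a library share its depth and free RNA and are not replicates.

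Levels differed widely among the T clusters. Cd4 clusters rich in Lef1, a factor of naive cells, held 562 and 433 CPM of S1pr1 and 2818 and 1756 CPM of Klf2, NanoCa first. The Klrg1 regulatory-like cluster held 144 and 104 CPM of S1pr1 and 716 and 486 of Klf2, while the Gpr83 regulatory-like cluster held 432 and 313 of S1pr1 and the highest Ccr7 of the 14, 3197 and 3069.5 CPM. Gamma-delta-like cells had 8 and 4 Ccr7 UMIs in all. Among clusters with at least 50 UMIs of it, Cxcr5 was highest in the follicular-helper-like one, where it was at 15.8 CPM with NanoCa and 31.7 CPM with mock (31 and 52 UMIs, log2 -1.0, interval -1.69 to -0.33). The interferon-signature cluster led by Ifit3 made up 6.22% and 2.30% of T cells, and its Klf2 log2 ratio was 0.41 (0.31 to 0.52).

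**Figure D4:**
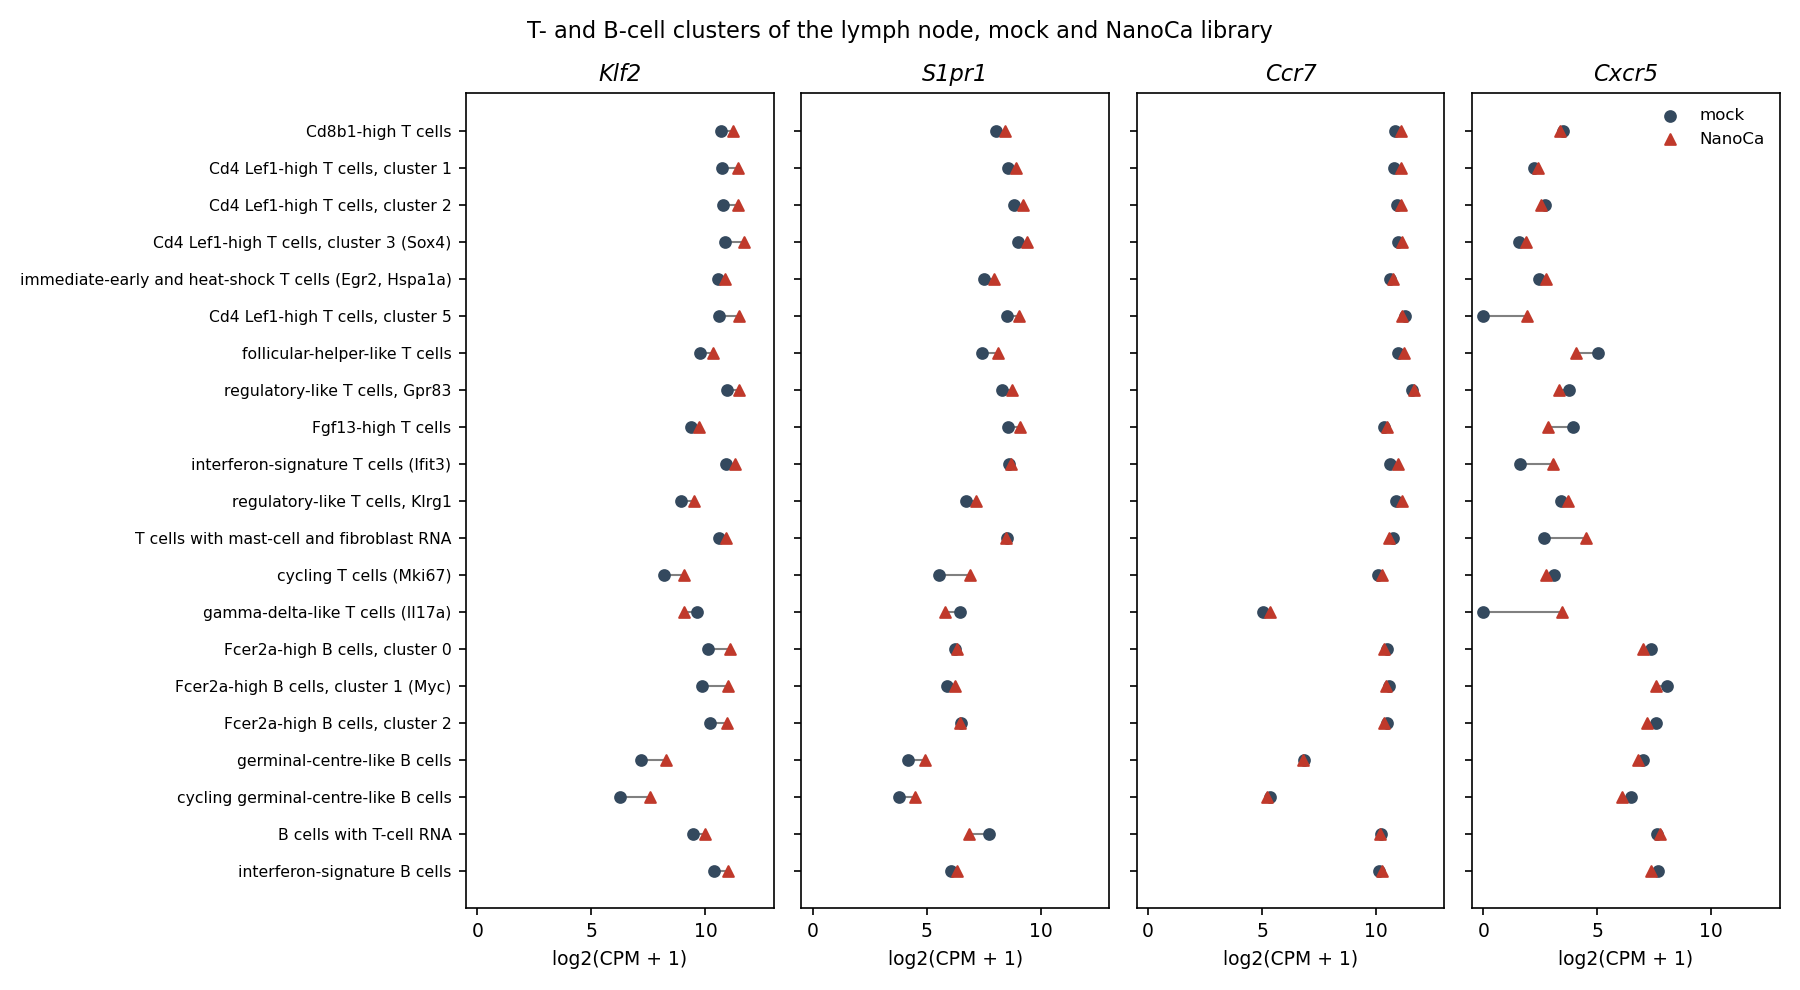
Levels of Klf2, S1pr1, Ccr7 and Cxcr5 as log2(CPM + 1) in each T and B cluster of the node, with mock as circles and NanoCa as triangles. Klf2 of the NanoCa library lies above mock in 13 of 14 T clusters and in 7 of 7 B clusters, while the germinal-centre-like B clusters are low in Ccr7 in both libraries.

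In node B cells the clusters separated Klf2 from Ccr7. Klf2 was higher with NanoCa in 7 of 7 clusters, from 0.55 to 1.30 on the log2 scale, with every interval above 1. Ccr7 was lower in 6 of 7 (3 intervals below 1, median -0.12), although over all B cells it was higher. Germinal-centre-like cells, which hold little Ccr7 (64.8 and 68.6 CPM against 1337 and 1435 in Fcer2a-high cells), made up 9.24% of B cells with NanoCa and 19.0% with mock. S1pr1 went both ways, above mock in 5 of 7 clusters and below in 2 (2 intervals above 1 and 1 below), from -0.85 to 0.78. Cxcr5 was lower in 6 of 7 clusters, with 4 intervals below 1 and a median of -0.38. Klf2 of germinal-centre-like cells was at 233 and 103 CPM, and that of Fcer2a-high cells at 2051 and 1093 CPM.

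Tumour T clusters numbered 8, and Ccr7 was lower with NanoCa in 7, with 4 intervals below 1. The memory-like cluster led by Ccl5 was the exception, at 194 and 166 CPM on 28 and 34 UMIs. The widest difference was in the cluster with Il17a and Il4, at 353 against 927 CPM (log2 -1.39, interval -1.74 to -1.06). S1pr1 was lower in all 4 clusters with enough UMIs (1 interval below 1), and Klf2 in 6 of 8 (3 intervals below 1), against a pooled Klf2 log2 ratio of 0.11. Cytotoxic cells led by Gzmf, low in Klf2 at 134 and 148 CPM and with 0 and 4 S1pr1 UMIs, were 3.96% of tumour T cells with NanoCa and 11.9% with mock. Different clusters held most naive-like cells in the 2 tumours: the cluster rich in the heat-shock gene Hspa1a had 258 NanoCa and 108 mock cells, and another had 84 and 342. In tumour B cells Klf2 was lower in 3 of 3 clusters, with 2 intervals below 1.

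**Figure D5:**
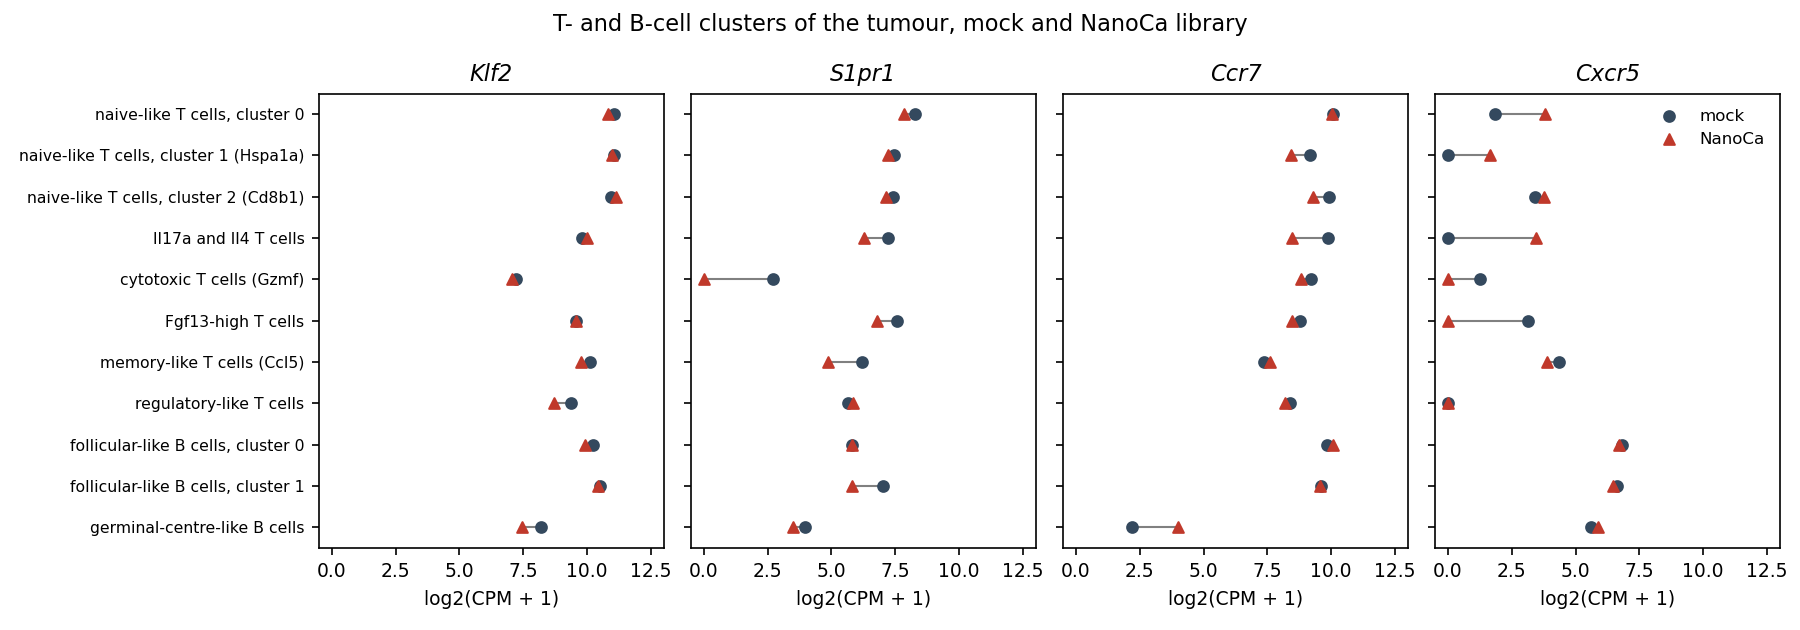
Levels of Klf2, S1pr1, Ccr7 and Cxcr5 as log2(CPM + 1) in each T and B cluster of the tumour, with mock as circles and NanoCa as triangles. Ccr7 of the NanoCa library lies below mock in 7 of 8 T clusters, and S1pr1 of the cytotoxic cluster rests on 0 and 4 UMIs.

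Compared within a treatment, T cells of the node exceeded those of the tumour in Ccr7 and S1pr1. With mock, the log2 ratio of TDLN over tumour was 1.26 (1.20 to 1.33) for Ccr7 and 0.97 (0.83 to 1.11) for S1pr1, and with NanoCa it was 2.26 (2.16 to 2.36) and 1.91 (1.71 to 2.13). Klf2 differed less, by 0.20 with mock and 0.71 with NanoCa. Members called higher in the node numbered 4 with mock (Ccr7, S1pr1, Cxcr5 and Cxcl13) and 4 with NanoCa (Ccr7, S1pr1, Klf2 and Cxcl13), where 13.8% of 11216 and 12% of 11270 genes were. Called lower were 0 members in each, beside 17.1% and 19.7% of genes. The Cxcl13 calls rest on 4 tumour UMIs with mock and 5 with NanoCa. With free RNA subtracted, Ccr7 and S1pr1 were the 2 members called higher in each, and with NanoCa Cxcr5 was called lower (log2 -0.91).

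For B cells the tissue difference was smaller with mock. Cxcr5 was the 1 member called higher in the mock node (log2 0.81, interval 0.46 to 1.18), where 10.9% of 9826 genes were, while Klf2 was lower in sign there (log2 -0.50, interval -0.62 to -0.39). With NanoCa 4 members were called, Klf2 (log2 0.98, interval 0.88 to 1.08), Cxcr5 (0.80), S1pr1 (0.77) and Ccr7 (0.74), where 11.4% of 9888 genes were. No member was called lower with either treatment, beside 7.98% of genes with mock and 12.5% with NanoCa. With free RNA subtracted the Klf2 call alone was left with NanoCa. With mock no member was then called higher and Klf2 was called lower (log2 -0.96), as it also was with doublets kept (-0.64) and TMM scaling (-0.63). The S1pr1 log2 ratio with NanoCa was -0.056 with free RNA subtracted. Free RNA was estimated at 28.4% and 32.7% of the UMIs of tumour B cells and at 9.82% and 11.8% of those of node B cells, NanoCa first.

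The wider homing pathway, 91 genes in 7 lists of sphingosine-1-phosphate signalling, the Klf2 and Foxo1 programme, adhesion, tissue retention, further chemokine axes, oxysterol positioning and stromal organisers, was called at shares set here beside those of all genes. In node T cells 0 of 65 measured genes were called higher (beside 2.16% of all genes) and 6 lower (beside 7.77% of all genes), with a median log2 ratio of 0.04 beside -0.00 over all genes. The lower ones included Rap1b, a small GTPase that activates integrins, at 204 CPM with NanoCa and 459.7 with mock (log2 -1.17), and Klf4, a quiescence factor related to Klf2, at 13 CPM with NanoCa and 25.3 with mock (log2 -0.96). Pdpn, Ackr3 and Cxcl14, genes known from stroma, were lower on 61, 55 and 95 UMIs over both libraries, and Lta, a lymphotoxin subunit, was at 7.67 CPM with NanoCa and 11.7 with mock (log2 -0.61). Of 10 fibroblast markers 4 were called lower in the same T cells, with summed levels of 24.9 and 67.0 CPM and 0 of the 10 at 0 UMIs, and 4 of 4 myeloid markers, with 38.4 and 119 CPM. The part of that RNA in the stromal genes was not tested.

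In node B cells 4 of 60 measured pathway genes were called higher and 3 lower, beside 3.71% and 8.5% of all genes, with a median of 0.12 beside -0.02. The higher ones included Cd69 at 195 CPM with NanoCa and 122 with mock (log2 0.68), the cell-cycle inhibitor Cdkn1b at 82.5 CPM with NanoCa and 48.7 with mock (log2 0.76), and Tcf7 at 10.7 CPM with NanoCa and 6.92 with mock (log2 0.63). S1pr2, the receptor that confines germinal-centre B cells, was at 33.1 CPM with NanoCa and 59.5 with mock (log2 -0.85), beside the lower share of germinal-centre-like cells given above. In node T cells Cd69 was at 235 and 159 CPM (log2 0.56), short of 1.5-fold.

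In tumour T cells 4 of 52 pathway genes were called higher and 2 lower, beside 6.18% and 2.84% of all genes (median 0.09 beside 0.03). In tumour B cells 4 of 37 were called higher and 2 lower, beside 7.23% and 3.1% of all genes (median 0.07 beside 0.04). Gnai2, the G-protein subunit through which Ccr7, Cxcr5 and S1pr1 signal, was at 497 CPM with NanoCa and 182 with mock (log2 1.45) in T cells and 635 CPM with NanoCa and 194 with mock (log2 1.71) in B cells. It was higher in all 9 tumour classes compared (median log2 1.45) and lower in all 7 node classes (median -0.26), and Rap1b was likewise higher in 9 of 9 tumour classes (median 0.75) and lower in 7 of 7 node classes (median -1.20). These shifts ran through every class of a tissue, lymphocytes or not. Foxo1, an activator of Klf2, was at 105 CPM with NanoCa and 70.0 with mock (log2 0.59) in T cells and 169 CPM with NanoCa and 61.9 with mock (log2 1.45) in B cells. Cxcr6, a receptor of tissue-resident T cells, was at 71.2 CPM with NanoCa and 147 with mock (log2 -1.04).

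The gene lists of this paragraph were chosen after the data were seen. Genes of the immediate-early and heat-shock response differed beside some of these results. Of 14 such genes, node B cells had 2 called higher with NanoCa, among them Nr4a1 at 1612 and 878 CPM (log2 0.88), where Klf2 was also higher, and node T cells had 0 higher and 2 lower. Tumour T cells had 3 higher and 1 lower, with Hspa1a at 1041 and 442 CPM (log2 1.24), beside the lower Ccr7. Tumour B cells had 2 higher and 2 lower. Carcinoma markers (Krt8, Krt18 and Rhox5) summed to 14.1 and 32.0 CPM in node T cells and 107 and 82.0 CPM in tumour T cells, NanoCa first. Endothelial markers summed to 117 and 90.5 CPM in node T cells, with Mmrn1 at 0 UMIs. The part of these in the member values was not tested.

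Over 34 class-by-library profiles of at least 50 cells, which leaves out the fibroblast-like cells of TDLN NanoCa, the genes most like each member by Pearson correlation of log2(CPM + 1) among 17025 genes were as follows. For Ccl19 they were Nphs1 (0.91), Aldh1a2 (0.85), Cadm2 (0.84), and for Ccl21a Ccl19 (0.82), Nphs1 (0.79), Lbhd2 (0.75). For Cxcl13 they were Hamp (0.80), Madcam1 (0.78), Lbhd2 (0.74), which include Madcam1 of the Cxcl13 cells above. For Ccr7 they were Tob2 (0.89), Stk4 (0.87), Birc2 (0.86), and for Cxcr5 Pou2af1 (0.88), Mif4gd (0.88), Pipox (0.88), with Pou2af1 a B-cell coactivator. For S1pr1 they were St8sia6 (0.84), Pik3ip1 (0.82), Ehd3 (0.82), and for Klf2 Avl9 (0.86), Smchd1 (0.84), Itpr2 (0.84). Between members the highest value was that of Ccl19 with Ccl21a, 0.82, and S1pr1 with Klf2 had 0.55. Profiles of a library share its depth and free RNA, so these are descriptions over dependent points.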

How the data were processed

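Single-cell RNA was counted in 4 libraries made with the 10x 3' v2 protocol, per the labels' protocols. The authors deposited UMI counts for each gene in each barcode, not normalised, made with Cell Ranger 7.1.0, per the file headers. No genome build, annotation or filter is given in the sources used here. The tumour libraries hold 167924801 (NanoCa) and 148121144 (mock) UMIs, and the TDLN libraries 74909974 (NanoCa) and 106579362 (mock).

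Kept barcodes had 200 genes or more and 10% mitochondrial UMIs or less, and the top 0.8% per 1000 barcodes by Scrublet score were removed as doublets. Each tissue was clustered separately (scanpy 1.11.5, leidenalg 0.10.2, 10000 per cell scaling, 2000 variable genes, 30 components, 15 neighbours, resolution 1; T subsets at 1 and B subsets at 0.5, with 20 components) without the 7 genes and the pathway lists. A class name required at least 3 of its markers at 1.5-fold enrichment. Counts were summed per class and given as CPM with exact Poisson 95% intervals. Ratios of 2 sums carry exact conditional binomial 95% intervals (scipy 1.17.1), which cover counting error only and not the spread between mice. A call needed 50 UMIs, 1.5-fold and an interval off a ratio of 1. The method was tested on simulated independent Poisson counts. Such counts do not cover UMIs clumped in single cells or differences between libraries. No p-value was computed, since each group has 1 library. A count of 0 was read against a limit of 3 counts. For TMM scaling edgeR 4.0.16 was used as an alternative on the deposited counts.

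The named genes are the 7 members in classes of at least 50 cells, at most 3 called genes per pathway list and comparison with the interval farthest from 1, and the 3 most alike genes per member. The fibroblast-like and endothelial-like cells of TDLN NanoCa, 42 and 17, were described after their values were seen. The immediate-early and heat-shock list and the lists of other cells' markers were also chosen after the data were seen. Genes named from those lists fall outside the naming above. A gene called in a pathway list is left out of the named genes and is not reported here. The members and lists were chosen with earlier results of these data known. Alternatives tried were doublets kept, 5% mitochondrial UMIs, members among the clustering genes, resolution 0.5, other scalings, thinning to 1000 UMIs, free RNA subtracted, the same cluster makeup, without mixed and Fgf13-high clusters, 10 UMIs and 2-fold.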

Additional observations from a re-analysis of the deposited data

Results flagged for a closer look

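Ccr7 in T cells was higher with NanoCa in the node and lower in the tumour, with log2 ratios of 0.22 and -0.77. S1pr1 in T cells likewise had 0.44 in the node and -0.50 in the tumour. Klf2 in B cells had 1.30 in the node and -0.19 in the tumour. These 3 pairs were flagged because the 2 tissues moved in opposite directions under the same treatment contrast. Signs were also counted over all classes with enough UMIs, which differ between tissues. S1pr1 was above mock in 4 of 4 in the node and below in 4 of 5 in the tumour. Ccr7 was above in 6 of 7 and below in 4 of 6, and Klf2 above in 5 of 7 and below in 6 of 9. Some of these signs lie within counting error. The tumour Ccr7 interval included a ratio of 1 in B cells, natural killer cells, Xist-low Ptprc-low cells, and monocytes and macrophages. Klf2 was below mock in both tissues in monocytes and macrophages (log2 -0.47 and -0.25, node first) and in Xist-low Ptprc-low cells (-0.42 and -0.46). In T cells Klf2 was above mock in both (0.62 and 0.11), as was Ccr7 in B cells (0.31 and 0.07). Each pair rests on 1 library per group, and the difference between tissues was not tested.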

How the results depend on the processing

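No paired analysis was possible because each group has 1 library. For the same reason no replicate could be left out. Among the main results, 191 alternatives left the value within its interval or the count within 1.5 times, 35 moved it further, and 1 turned the sign of a value that was called or whose interval excluded 0. Among the other results these numbers were 288, 65 and 1. Over all 34 log2 ratios, called or not, the sign changed in 15 of 305 alternatives, spread over 11 ratios.

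Members called higher in node T cells numbered 2 (Klf2 and Cxcl13) when the members were among the clustering genes, and 0 after thinning to 1000 UMIs or at 2-fold. The Klf2 log2 ratio there was 0.57 when thinned and 0.55 with free RNA subtracted, short of 1.5-fold, and in the latter Cxcl13 was the 1 member called. In node B cells 2 members, Klf2 and Cxcl13, were called higher at 5% mitochondrial UMIs, with members among the clustering genes, with free RNA subtracted or with the same cluster makeup. Klf2 there was 1.04 when thinned and 0.93 with the same makeup, while Ccr7 was -0.0089 and -0.11, and S1pr1 was -0.26 when thinned. In tumour T cells 0 members were called lower with the same makeup or at 2-fold, and the Ccr7 log2 ratio was -0.94 when thinned and -0.43 with the same makeup.

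For TDLN over tumour, T cells with mock had 2 members called higher when thinned or with free RNA subtracted, and T cells with NanoCa 2 higher and 1 lower (Cxcr5) with free RNA subtracted. B cells with mock had 0 higher with free RNA subtracted or at 2-fold, and 1 lower (Klf2) with doublets kept, TMM scaling or free RNA subtracted. B cells with NanoCa had 2 higher when thinned, 1 with free RNA subtracted and 0 at 2-fold, and S1pr1 reversed to -0.056 with free RNA subtracted. TMM moved the median of all genes by 0.12 in B cells with mock. The same makeup could not be set across tissues, which were clustered separately.

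The library log2 ratio of Ccl19 in TDLN was 1.95 without the cell with most UMIs, -0.66 without the 2 such cells, and 1.99 outside Xist-low Ptprc-low clusters. Ccl21a gave 2.85, 0.28 and 2.74. Cxcl13 was -0.033 with doublets removed, -0.052 without the top cell and -0.51 outside Xist-low Ptprc-low clusters. The removal of the 2 cells and of the mixed and Fgf13-high clusters was chosen after seeing the data. Of the pathway counts, those called lower in node B cells were 7 at 10 UMIs and 6 with the same makeup against 3, and those called higher in tumour T cells were 2 under TMM or median-of-ratios scaling against 4. For the other changes the cause was not tested.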
